A study of Mus musculus with 6 samples.

Results

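Fragments of 7 housekeeping RNA families were counted in small RNA libraries, as tags assigned to the Rfam families of transfer RNA (RF00005), Y RNA (RF00019), 7SK (RF00100), 7SL, the RNA of the signal recognition particle (RF00017), vault RNA (RF00006), RNase P RNA (RF00009) and RNase MRP RNA (RF00030). The families were chosen by their Rfam identifiers, and all 7 were among the 61628 rows of the deposited count table, 921 of which are Rfam families. The libraries came from primary peritubular myoid cells, the contractile cells around the seminiferous tubules, of C57BL/6J mice. ET1 libraries (n = 3) were made from cells given 50 nM endothelin-1, a peptide that contracts smooth muscle, for 5 min at 37 °C, and untreated libraries (n = 3) from cells without it; all cells were primary and grown with 10% fetal bovine serum. The design asks what the peptide does to the small RNAs of these cells. The labels do not say whether replicates were separate animals or cultures, so all p-values measure the spread between these libraries.

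All 7 RNAs are made by RNA polymerase III and work as full-length molecules, bound to protein. Transfer RNAs carry amino acids to the ribosome, 7SL holds the particle that brings secreted proteins to the endoplasmic reticulum, 7SK keeps the elongation factor P-TEFb inactive, and Y RNAs bind the Ro60 protein. Vault RNAs are part of the vault particle, RNase P RNA cuts the leader off precursor tRNAs, and RNase MRP RNA, related to it, acts on precursor rRNA. A small RNA library holds mainly short pieces of such RNAs, so the counts below describe fragments and not the level of the whole RNA. Fragments of tRNA and of Y RNA are known from many cells and from serum.

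The table assigns tags to a family and not to a gene, so the following reference RNAs are examples of genes a family row can draw on. Apart from tRNA genes, other genes of these families were not searched for. Sequences and positions are those of GENCODE M21 on GRCm38, 5′ to 3′ and written as DNA. The mouse Y RNAs are shown because that row held the most tags; capitals mark the 12 bases that are the longest run common to both.
Rny1: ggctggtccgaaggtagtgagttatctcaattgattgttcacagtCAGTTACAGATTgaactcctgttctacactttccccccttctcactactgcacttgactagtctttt
Rny3: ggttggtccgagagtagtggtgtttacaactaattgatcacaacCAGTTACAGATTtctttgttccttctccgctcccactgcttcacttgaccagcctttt
Rny1 (chr6:47788069-47788180, minus strand, 112 bases) and Rny3 (chr6:47781624-47781725, plus strand, 102 bases) overlapped no other annotated gene. Aligned end to end they were identical at 72.3% of 112 columns.

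The RNase MRP RNA is shown because its ratio to 7SL was the single one of 21 ratios between families that separated the groups. This does not set it apart: 28.5% of pairs of Rfam rows with a mean of at least 100 tags a library had no overlap. RNase MRP RNA itself had only 22 to 87 tags a library. Capitals mark its 2 runs of 9 bases that the RNase P gene Rpph1 also holds, the longest in common between them.
Rmrp: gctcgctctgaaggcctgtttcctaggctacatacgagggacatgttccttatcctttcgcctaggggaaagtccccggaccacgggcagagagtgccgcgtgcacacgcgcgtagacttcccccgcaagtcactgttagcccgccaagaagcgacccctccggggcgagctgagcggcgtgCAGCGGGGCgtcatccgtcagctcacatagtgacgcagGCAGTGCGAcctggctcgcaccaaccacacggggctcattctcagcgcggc
Rmrp (chr4:43492788-43493058, minus strand, 271 bases) overlaps an exon of Ccdc107 on the opposite strand. Rpph1 (chr14:50807449-50807767, minus strand, 319 bases) overlaps an exon of Ccnb1ip1 on its own strand, and Rn7sk (chr9:78175303-78175633, minus strand, 331 bases) overlaps no other gene. Strand cannot tell tags of Rpph1 apart from those of the exon it overlaps. Whether tags were counted by strand is not given in the sources used here, so tags of Rmrp may not be told apart from those of Ccdc107 either. The tRNA row can draw on many genes: RefSeq lists 408 tRNA genes off the mitochondrial genome of GRCm38.p6, with a median length of 72 bases.

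Levels are given as RPM, the tags of a row scaled to 1000000 tags of all rows of the library. The libraries held 18127265 to 19493731 tags in the ET1 group and 18972157 to 20895432 in the untreated group. The groups differed in make-up: known miRNAs held 22.6% to 25.5% of all tags in ET1 libraries against 30.1% to 45.6% in untreated libraries, and rRNA families 7.12% to 11.02% against 3.22% to 5.63%. Of 19 miRNA markers of cell types, 18 were above 0 in every library; miR-142a-3p, a leukocyte miRNA, was at 0 in untreated library 1. The summed markers did not overlap between groups in 4 of 7 sets: smooth muscle (14090 to 18410 against 19690 to 24080 RPM of known miRNA tags), endothelial (131 to 192 against 1058 to 1647), leukocyte (38.6 to 45.2 against 192 to 283) and mesenchymal (23250 to 26940 against 16450 to 20140). Within these sets, the endothelial one aside, the markers did not all go the way of the sum. The smooth muscle sum was mostly miR-143-3p (11290 to 15850 RPM of known miRNA tags in ET1 libraries against 16950 to 22000 in untreated libraries). The sparser miR-133a-3p (76.9 to 111 against 174 to 245) and miR-1a-3p (1.45 to 3.88 against 4.49 to 5.895) were also lower in all ET1 libraries. The cluster partner of miR-143-3p, miR-145a-5p, overlapped (2485 to 3086 against 1850 to 2553). In the leukocyte set miR-150-5p was lower in ET1 libraries (24.4 to 35.4 against 177 to 279), but miR-142a-3p was higher (1.66 to 3.19 against 0 to 0.962) and miR-223-3p overlapped (7.88 to 18.1 against 3.70 to 14.4). In the mesenchymal set miR-214-3p alone separated the groups (7155 to 10700 against 2430 to 5394). Summed markers of germ cells (40170 to 81320 against 30260 to 59010), red cells (511 to 1483 against 125 to 874) and epithelial and Sertoli cells (672 to 1906 against 825 to 1158) overlapped. The germ cell sum was mostly miR-470-5p (40030 to 81140 against 30160 to 58940). Of its sparser markers, miR-449a-5p was higher in all ET1 libraries (79.7 to 429 against 33.5 to 49.1). So was miR-486a-5p of the red cell set (467 to 1233 against 82.35 to 231). Each of the other markers summed in these overlapping sets overlapped too. The share of all known miRNA rows without overlap on this scale was not computed, so whether 4 of 7 sets is many cannot be said. The part of the differences in make-up and markers in the results below was not tested. Untreated library 3 stood apart from the other untreated libraries for 3 of the families, and their fold changes are also given without it.

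Tags of the 7 families together made up 0.224%, 0.183% and 0.188% of all tags in ET1 libraries 1, 2 and 3, against 0.137%, 0.214% and 0.251% in untreated libraries 1, 2 and 3. The groups overlapped, and their means were almost equal, 0.198% ± 0.0224 in ET1 and 0.200% ± 0.0581 in untreated libraries (SD, n = 3 each). None of the 7 families passed the test in either direction. Their log2 fold changes of ET1 over untreated in edgeR's quasi-likelihood fit ran from −0.71 for 7SK to 0.44 for RNase P RNA, with a median of −0.24 against 0.02 over all 2579 rows tested. In that fit 0 of the 2579 rows, or 0%, passed an adjusted p of 0.05, and 199, or 7.72%, had an unadjusted p under 0.05 (3.37% higher and 4.34% lower in ET1); none of the 7 families did. DESeq2 called 111 rows of the same table and none of the 7. In bulk RNA, fewer cells of a type and less RNA per cell cannot be told apart.

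**Figure D1:**
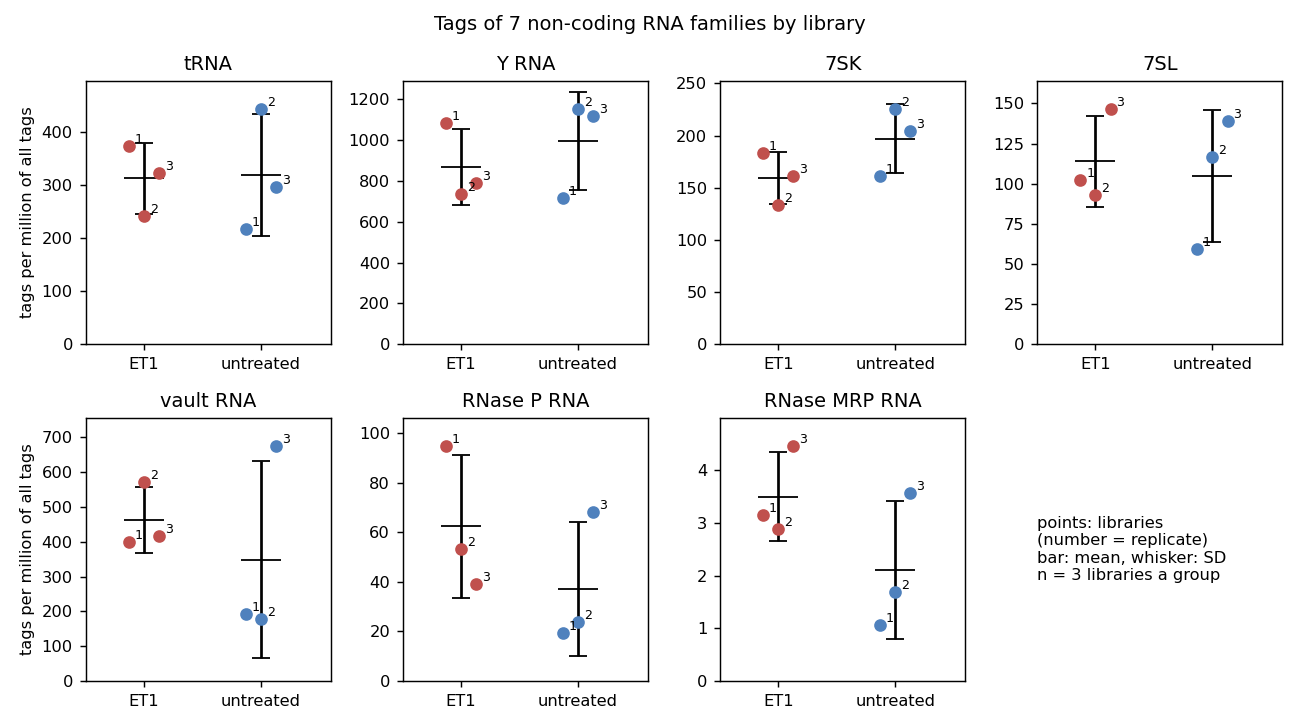
RPM (vertical axes, each from 0) of the 7 families in ET1 (left, red) and untreated (right, blue) libraries; points are libraries with their replicate number, the bar is the mean and the whisker the SD of 3 libraries. The groups overlap in all 7 panels, and untreated library 3 lies far above untreated libraries 1 and 2 for vault RNA, RNase P RNA and RNase MRP RNA.

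Of the families that take part in translation and protein export, tRNA fragments stood at 374, 241 and 323 RPM in ET1 libraries 1, 2 and 3, against 217, 443 and 297 in untreated libraries 1, 2 and 3. The untreated libraries were both the lowest and the highest, so the ET1 values lay inside their range. The means were 313 ± 67.2 RPM in ET1 and 319 ± 115 RPM in untreated libraries (SD, n = 3 each; p = 1 by two-sided exact permutation). Their difference, −6.05 RPM, was 55.97 RPM without untreated library 2 and 29.8 RPM without ET1 library 2. The edgeR log2 fold change was −0.46 (SE 0.40; edgeR adjusted p = 0.99), with a 95% interval of −1.39 to 0.48, so the interval reaches from 0.38-fold to 1.39-fold. With 1 library left out it ran from −0.65 to −0.07, the last without untreated library 2. The selenocysteine tRNA, a tRNA with its own Rfam row, counted 21, 4 and 12 tags in ET1 libraries against 1, 7 and 24 in untreated libraries, too few to enter the fit.

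7SL fragments stood at 102, 93.1 and 146 RPM in ET1 libraries 1, 2 and 3, against 59.3, 117 and 139 in untreated libraries 1, 2 and 3. ET1 library 3 was highest and untreated library 1 lowest, with the other 4 libraries mixed between them. The edgeR log2 fold change was −0.24 (SE 0.41, 95% interval −1.21 to 0.72; edgeR adjusted p = 0.99), and −0.51 to −0.08 with 1 library left out. As a share of all tags the mean was 114 ± 28.5 RPM in ET1 libraries and 105 ± 41.1 RPM in untreated libraries (SD, n = 3 each; p = 0.9 by exact permutation), so the sign followed the scaling; it also turned negative without ET1 library 3 (−7.32 RPM) or untreated library 1 (−13.9 RPM).

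Y RNA fragments were the most numerous of the 7 families, with 19639, 14260 and 15392 tags in ET1 libraries and 14996, 21847 and 23171 tags in untreated libraries. In RPM these were 1083, 735 and 790 in ET1 libraries 1, 2 and 3, against 718, 1152 and 1119 in untreated libraries 1, 2 and 3. Untreated library 1 was the lowest of all, below every ET1 library, and the other 2 untreated libraries were the highest. The edgeR log2 fold change was −0.59 (SE 0.33, 95% interval −1.36 to 0.17; edgeR adjusted p = 0.79). On the share of all tags the exact permutation p was 0.6.

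For 7SK the log2 fold change was the lowest among the families, −0.71 (SE 0.34, 95% interval −1.52 to 0.09; unadjusted p = 0.074, edgeR adjusted p = 0.74). Its fragments stood at 183, 133 and 161 RPM in ET1 libraries 1, 2 and 3, against 161, 225 and 205 in untreated libraries 1, 2 and 3. ET1 libraries 2 and 3 lay at the low end with untreated library 1, and ET1 library 1 lay above that library, so the groups overlapped (exact permutation p = 0.3). After TMM scaling to the other non-miRNA rows, the ET1 libraries had 1167, 1176 and 1097 CPM against 1704, 2327 and 1606 CPM in untreated libraries, with no overlap. Y RNA had no overlap on that scale either, at 6909, 6471 and 5373 against 7598, 11890 and 8784 CPM. These were 2 of the 7 families, where 16.8% of all 2579 rows had no overlap in either direction on the same scale (6.63% with ET1 higher and 10.2% with ET1 lower). By the share of all tags 0 of the 7 had none, against 17.3% of the rows (11.7% with ET1 higher and 5.66% with ET1 lower).

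Vault RNA fragments stood at 400, 572 and 416 RPM in ET1 libraries 1, 2 and 3, against 193, 177 and 675 in untreated libraries 1, 2 and 3. The ET1 libraries stood together between untreated library 3, the highest, and the other 2 untreated libraries, the lowest. The mean was 463 ± 94.8 RPM in ET1 and 348 ± 283 RPM in untreated libraries, with n = 3 each and SD as the error (p = 0.6 by exact permutation). The edgeR log2 fold change of 0.19 (SE 0.54, 95% interval −1.09 to 1.46; edgeR adjusted p = 0.99) rested on single libraries: it was 0.86 without untreated library 3, −0.23 without ET1 library 2, −0.09 without untreated library 2 and −0.05 without untreated library 1.

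The RNAs of the processing enzymes varied in a similar way. RNase P RNA fragments stood at 94.9, 53.2 and 39.1 RPM in ET1 libraries 1, 2 and 3, against 19.3, 23.9 and 68.1 in untreated libraries 1, 2 and 3. Untreated library 3 exceeded 2 of the ET1 libraries, while untreated libraries 1 and 2 were below all of them. The edgeR log2 fold change was 0.44 (SE 0.54, 95% interval −0.84 to 1.73; edgeR adjusted p = 0.99; exact permutation p = 0.3 on the share), and 1.01 without untreated library 3, with edgeR adjusted p = 0.66. Leaving out ET1 library 1 gave 0.15, leaving out untreated library 1 gave 0.17 and leaving out untreated library 2 gave 0.26. The remaining omissions, of ET1 library 2 and of ET1 library 3, gave 0.37 and 0.72.

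RNase MRP RNA was counted sparsely, with 57, 56 and 87 tags in ET1 libraries 1, 2 and 3, against 22, 32 and 74 tags in untreated libraries 1, 2 and 3. The 22 tags of untreated library 1 are 1.05 RPM, with an exact binomial 95% interval of 0.66 to 1.59 that covers counting error only. ET1 libraries had 3.14, 2.88 and 4.46 RPM and the other untreated libraries 1.69 and 3.57, so again untreated library 3 lay within the ET1 range and the other 2 below it. The edgeR log2 fold change was 0.42 (SE 0.53, 95% interval −0.83 to 1.67; edgeR adjusted p = 0.99; exact permutation p = 0.3 on the share), and 0.82 without untreated library 3, with edgeR adjusted p = 0.76. It was 0.13 without untreated library 1 and 0.27 without ET1 library 3, and 0.35 to 0.55 without each of the remaining 3.

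Untreated library 3 was thus well above the other untreated libraries for vault RNA, RNase P RNA and RNase MRP RNA. Of the untreated libraries it also had the lowest share of known miRNA tags, 30.1% against 38.8% and 45.6% in untreated libraries 1 and 2, and the most fragments of the large subunit rRNA, 5299 against 2637 and 1587 RPM. The part of library make-up in the values of untreated library 3 was not tested.

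**Figure D2:**
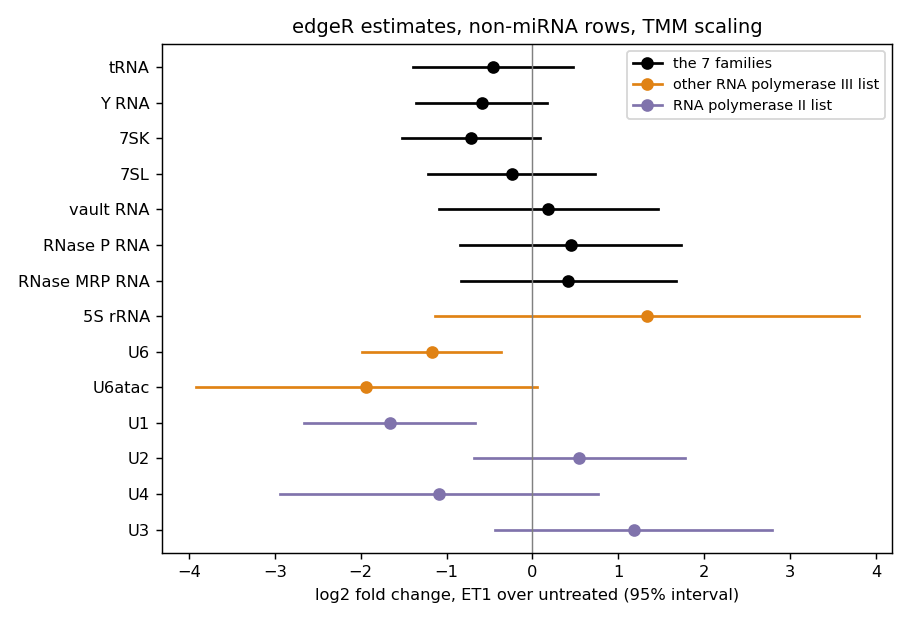
edgeR log2 fold change of ET1 over untreated (horizontal axis) with its 95% interval for the 7 families (black) and for the tested members of the lists of other RNA polymerase III transcripts (orange) and of RNA polymerase II transcripts (purple). All 7 black intervals include 0; those of U6 and U1 lie below 0 before adjustment, with edgeR adjusted p of 0.32 and 0.28.

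The spread between libraries of a group differed by family. In untreated libraries the highest level was 3.82 times the lowest for vault RNA, 3.53 times for RNase P RNA and 3.39 times for RNase MRP RNA, but 1.40 times for 7SK and 1.6 times for Y RNA. Between these, tRNA was at 2.04 times and 7SL at 2.345 times in untreated libraries. In ET1 libraries it was 1.43, 2.42 and 1.55 times for vault RNA, RNase P RNA and RNase MRP RNA. It was 1.55 and 1.57 times there for tRNA and 7SL, and 1.37 and 1.47 times for 7SK and Y RNA. Tag numbers were 14260 or more for Y RNA and 2591 or more for 7SK in every library, so counting error was small beside this spread. For RNase MRP RNA, the exact intervals of untreated libraries 1 and 3 (0.66 to 1.59 and 2.81 to 4.49 RPM) did not meet either.

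Per base of reference RNA, the group means put the families in the same order in ET1 and untreated libraries. That order was not the one in RPM, where vault RNA (463 in ET1 and 348 in untreated libraries) stood above tRNA (313 and 319). Y RNA was first, with 812 ± 175 RPM per 100 bases in ET1 and 931 ± 226 in untreated libraries, and tRNA second, with 434 ± 93.3 and 443 ± 159 (SD, n = 3 each). Vault RNA (324 ± 66.3 in ET1 and 243 ± 198 in untreated libraries) was not separated from tRNA beyond its spread. 7SK (48.1 ± 7.51 and 59.5 ± 9.93), 7SL (37.96 ± 9.50 and 34.98 ± 13.7) and RNase P RNA (19.6 ± 9.09 and 11.6 ± 8.45) lay below them, and 7SK and 7SL did not separate in ET1 libraries. RNase MRP RNA, at 1.29 ± 0.312 and 0.777 ± 0.484, was lowest. The length used for Y RNA and 7SL was the mean of the reference genes, for tRNA the median, and for vault RNA that of the gene Vaultrc5.

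**Figure D3:**
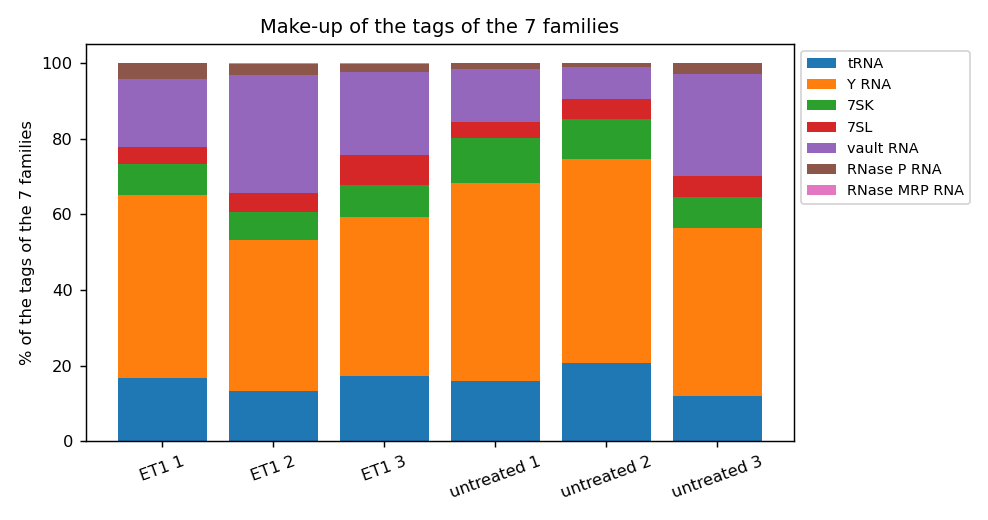
Share of each family in the summed tags of the 7 families (vertical axis, percent) in the 3 ET1 libraries (left) and the 3 untreated libraries (right). Y RNA fills 40.1% to 48.3% of the ET1 bars and 44.7% to 53.9% of the untreated bars, and the vault RNA part is widest in ET1 library 2 and narrowest in untreated library 2.

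Within the 7 families the make-up also overlapped between groups. Y RNA held 43.5% ± 4.30 of their tags in ET1 and 50.3% ± 4.96 in untreated libraries, and 7SK 8.01% ± 0.656 against 10.2% ± 1.83. Vault RNA held 17.9%, 31.2% and 22.1% in ET1 libraries 1, 2 and 3, against 14.1%, 8.26% and 26.9% in untreated libraries 1, 2 and 3. RNase P RNA held 3.07% ± 1.09 against 1.75% ± 0.852. All of these are SD over n = 3 libraries each.

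Ratios of families within a library do not depend on scaling. The 7SL to RNase MRP RNA ratio was the single one of 21 pairs without overlap, at 32.5 in ET1 and 53.3 in untreated libraries (geometric means, n = 3 each), where 28.5% of the pairs among the 113 well-counted Rfam rows (a mean of at least 100 tags a library, which RNase MRP RNA did not reach) had no overlap. In log2 units it was 5.02, 5.01 and 5.03 in ET1 libraries 1, 2 and 3 and 5.82, 6.11 and 5.28 in untreated libraries 1, 2 and 3. The ratios to tRNA overlapped for all 6 other families. RNase P RNA and RNase MRP RNA, the related enzymes, had a geometric mean ratio of 17.0 in both groups, but it ran from 3.13 to 4.92 in log2 units over the ET1 libraries.

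Over the 6 libraries some families varied together, given here as a description of the log2 RPM, since the libraries share depth and make-up. Y RNA had a Pearson r of 0.90 with 7SK and 0.81 with tRNA. Vault RNA had 0.81 with RNase P RNA and 0.82 with RNase MRP RNA, but −0.31 with 7SK. 7SL stood nearest to RNase MRP RNA, at 0.82.

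Among the 113 well-counted Rfam rows, the 2 most like a family over the 6 libraries were found for the 6 families among those rows, RNase MRP RNA being too sparse. For RNase P RNA they were the small nucleolar RNA SNORA7 (r = 0.96) and the bacterial family rydB (r = 0.96), for vault RNA U83B (r = 0.92) and SNORA7 (r = 0.91), and for 7SL SNORD61 (r = 0.94) and the bacterial transfer-messenger RNA (r = 0.94). For 7SK they were Y RNA (r = 0.90) and SNORD43 (r = 0.89), for Y RNA 7SK (r = 0.90) and SNORD55/SNORD39 (r = 0.86), and for tRNA SNORA44 (r = 0.83) and Y RNA (r = 0.81).

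Other small nuclear and ribosomal RNAs gave a frame for these values. Of 5 further families listed beside them (5S rRNA, U6, U6atac, the selenocysteine tRNA and vertebrate telomerase RNA, of which the last is not made by RNA polymerase III), 3 had enough tags to be tested, and 0 passed in either direction; of 6 spliceosomal and nucleolar RNAs made by RNA polymerase II, 4 were tested and 0 passed. U6, a spliceosomal RNA made by RNA polymerase III, stood at 182, 149 and 172 RPM in ET1 libraries 1, 2 and 3, against 249, 331 and 278 in untreated libraries 1, 2 and 3. All 3 ET1 libraries were below all untreated libraries, as in 5.66% of the 2579 rows tested. The log2 fold change of U6 was −1.18 with SE 0.35 (adjusted p = 0.32 in edgeR), and DESeq2 called U6 (DESeq2 adjusted p = 0.0053). U1, which reads the 5′ splice site, was at −1.66 (SE 0.42; edgeR adjusted p = 0.28; DESeq2 adjusted p = 0.00024), with 571, 455 and 960 tags in ET1 libraries and 1181, 1673 and 2217 in untreated libraries. U2 (0.55) and U3 (1.18) had positive log2 fold changes, and U4 (−1.09) and U6atac (−1.94) negative ones, with edgeR adjusted p of 0.66 or more. 5S rRNA, also of RNA polymerase III, had 112, 34 and 94 tags in ET1 libraries and 2, 11 and 72 tags in untreated libraries (log2 fold change 1.34 with SE 1.04; adjusted p = 0.98 in edgeR).

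**Figure D4:**
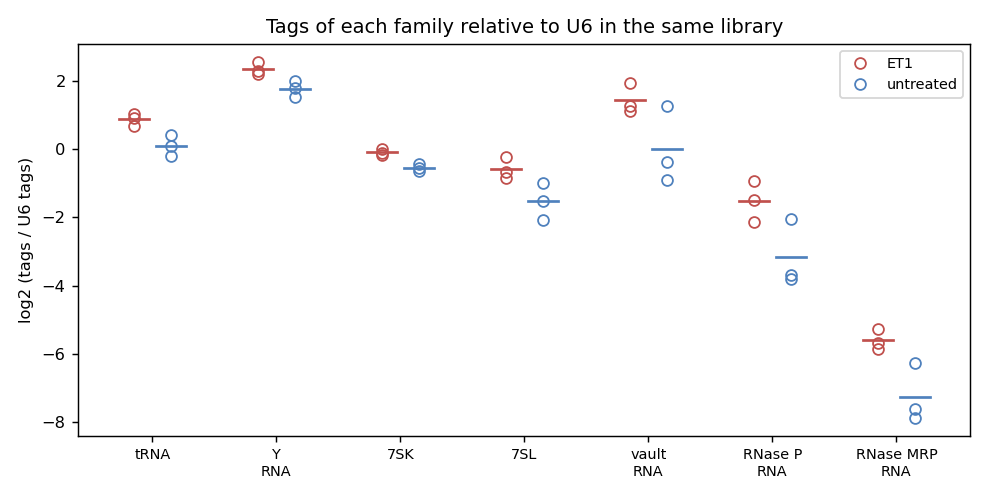
log2 ratio of the tags of each family to the U6 tags of the same library (vertical axis) in ET1 (left of each pair, red) and untreated (right, blue) libraries; circles are libraries and lines the means of 3. For tRNA, Y RNA, 7SK, 7SL and RNase MRP RNA every ET1 circle lies above every untreated circle, while vault RNA and RNase P RNA overlap.

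Set against U6, a comparison chosen after the values were seen, 5 of the 7 families had no overlap and were higher in ET1 libraries, where 28.5% of pairs of well-counted Rfam rows had no overlap in either direction. The 7 ratios share U6, which was itself lower in all 3 ET1 libraries, and so are not separate results. The 7SK to U6 ratio was 1.003, 0.896 and 0.936 in ET1 libraries 1, 2 and 3, against 0.648, 0.680 and 0.736 in untreated libraries 1, 2 and 3. The tRNA to U6 ratio was 2.05, 1.62 and 1.87 in ET1 libraries and 0.872, 1.34 and 1.07 in untreated libraries. No test was made of these ratios.

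Against all Rfam tags the 7 families took a smaller part of the ET1 libraries, at 2.60%, 1.504% and 1.62% in ET1 libraries 1, 2 and 3 against 2.99%, 3.36% and 3.44% in untreated libraries 1, 2 and 3, without overlap. Rfam rows as a whole held 10.8% ± 1.90 of all tags in ET1 and 6.08% ± 1.38 in untreated libraries (SD, n = 3 each), and small subunit rRNA alone 4.23% ± 1.92 against 0.866% ± 0.372. The part of rRNA in the lower share of the 7 families among Rfam tags was not tested.

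Rfam holds separate rows for the same RNAs in other lineages, which a mouse tag can match. Of 13 such rows listed, 10 were in the table and 2 had enough tags for the fit. Bacterial RNase P class A had 162, 199 and 243 tags in ET1 libraries and 90, 53 and 190 in untreated libraries (log2 fold change 0.66; adjusted p = 0.96 in edgeR), and the bacterial small signal recognition particle RNA 41, 43 and 62 in ET1 libraries and 39, 22 and 30 in untreated libraries (0.37; edgeR adjusted p = 0.99). Whether these tags came from the mouse RNAs was not tested.

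**Figure D5:**
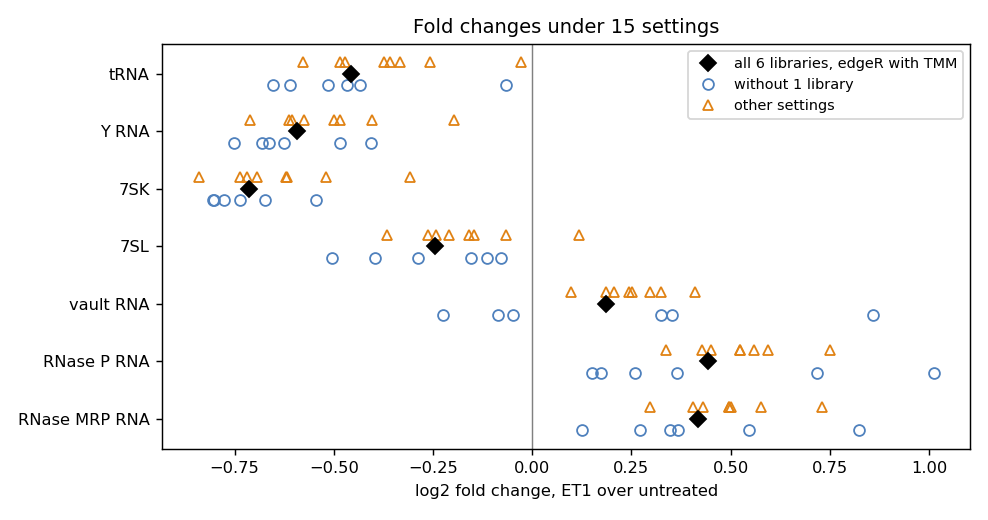
log2 fold change of ET1 over untreated (horizontal axis) for the 7 families with all libraries (black diamonds), with 1 library left out (blue circles) and with other settings, DESeq2 among them (orange triangles). tRNA, Y RNA and 7SK lie below 0 and RNase P RNA and RNase MRP RNA above 0 in every setting drawn, while 7SL and vault RNA cross 0.

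Under 14 alternative settings none of the 7 families passed, the smallest adjusted p being 0.15 for 7SK in DESeq2. With library sizes of all tags, a scaling that moved the median of all tested rows to 0.43, 7SK was at −0.31, Y RNA at −0.20, tRNA at −0.03, 7SL at 0.12, vault RNA at 0.41, RNase MRP RNA at 0.73 and RNase P RNA at 0.75. Relative to that median 7SK, Y RNA, tRNA and 7SL were below the typical row, and RNase MRP RNA and RNase P RNA above it. Vault RNA lay close to the median. In the main fit it was at 0.19 (SE 0.54), above the median of 0.02 over all rows tested. The 95% intervals allow a change of 7SK from 0.35-fold to 1.07-fold and of RNase P RNA from 0.56-fold to 3.31-fold.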

How the data were processed

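The authors deposited a table of raw tag counts for 61628 rows in 6 libraries, per the file headers, and beside each count a value headed TPM. From the values, that deposited column is an RPM, the count scaled to 1000000 tags of all rows, with length left out (ratio of the computed to the deposited value 0.9981 to 1.0032 for counts of at least 50); it was not used in a test. Bowtie2 and the build mm10 are named, per the submitters' processing notes; how tags were assigned among Rfam families, repeats and genome classes, and how tags with several matches were treated, is not given in the sources used here. This matters for tRNA and 7SL, whose relatives among the SINE repeats could take or give tags; rows for repeats held 21.6% to 24.2% of tags in ET1 and 15.8% to 20.4% in untreated libraries.

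Known miRNA rows and the 4 rows of totals were set aside, and the other 60051 rows were fitted together in edgeR 4.0.16 (R 4.3.3): default expression filter with the group (2579 rows kept), TMM scaling, the robust quasi-likelihood test of the group (two-sided, no other term), and Benjamini-Hochberg adjusted p with a threshold of 0.05. The script was tested on simulated data. Shares are in RPM, compared by exact permutation over libraries, which cannot give p below 0.1 with 3 against 3; adjusted over the 2579 rows these ranged from 0.76 to 1 for the 7 families. No library repeated another of its group: chi-square over degrees of freedom was 200.5 to 469.5 between them. Intervals are at 95%. Alternatives were DESeq2 1.42.0, other scalings, filters and rows, a replicate block, and leaving out each library.

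The families and lists were chosen with earlier results of these data known. Beside the families, the rows named were those of the lists of related RNAs and, for each family with a mean of at least 100 tags a library, the 2 Rfam rows with the highest Pearson r. Ratios other than those to tRNA were chosen after values were seen. The authors' comparison table lists miRNAs and was not used here. The reference sequence of 7SL is not reported here.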

Additional observations from a re-analysis of the deposited data

How the results depend on the processing

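No family passed under any of the 14 alternatives. The count of called non-miRNA rows, 0 with edgeR, was 111 with DESeq2 (39 higher, 72 lower), 34 without a filter on low counts and 15 with Rfam rows alone; it was 0 with library sizes of all tags, with all rows fitted together, with a filter of at least 10 CPM in 3 libraries, without rRNA rows and without any 1 library. With 1 library left out the filter kept 3017 to 3288 rows in place of 2579. With the replicate number as a block (replicate block) 0 rows were called and 7SK was at −0.69. Same-numbered libraries had correlations of deviations of 0.089, −0.088 and 0.008, and differently numbered ones −0.199 to 0.214. These values show no pairing by number, but with 3 libraries a group they cannot settle whether libraries were prepared in pairs. The log2 fold change of 7SL, −0.24, was 0.12 with library sizes of all tags. That of vault RNA, 0.19, ran from −0.23 to 0.86 with 1 library left out (−0.05 without untreated library 1, −0.09 without untreated library 2). On the share of all tags, the ET1 minus untreated difference of tRNA, −6.05 RPM, was 9.88 without rRNA tags in the total and ran from −57.1 to 55.97 with 1 library left out; that of 7SL, 8.93, was −19.4 RPM of tags other than miRNAs, −607 RPM of Rfam tags and ran from −13.9 to 25.98 with 1 library left out; that of vault RNA, 115, was −1107 RPM of Rfam tags. The cause of these reversals was not tested. U1 and U6 passed with DESeq2 (−1.69 and −1.20), and U1 with Rfam rows alone (−1.57). RNase MRP RNA had the fewest tags, 22 to 87 a library, but its SE (0.53) was close to those of vault RNA and RNase P RNA (0.54 each), which had 403 tags or more.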

Other observations

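Rows of bacterial families ranged from well counted to sparse. The row for transfer-messenger RNA, a bacterial RNA that frees stalled ribosomes, counted 37206, 32448 and 48361 tags in ET1 libraries 1, 2 and 3, against 21298, 31012 and 49218 in untreated libraries 1, 2 and 3, more than any of the 7 families in each library. In RPM it was 2052, 1671 and 2481 in ET1 libraries and 1019, 1635 and 2378 in untreated libraries, so the groups overlapped. The Y RNA-like row of bacteria counted 44, 86 and 76 tags in ET1 libraries and 35, 24 and 46 in untreated libraries. In RPM it was 2.43, 4.43 and 3.90 in ET1 libraries and 1.68, 1.26 and 2.22 in untreated libraries, higher in all 3 ET1 libraries, as were 11.7% of the 2579 rows tested. Where these tags come from was not tested.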
